A study of Mus musculus with 14 samples.

Results

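A set of 9 transcription factor genes that mark neuron types of the mouse hippocampus and cortex was examined for H3K27me3: Prox1, Zbtb20, Bcl11b, Fezf2, Tbr1, Lef1, Neurod2, Neurod6 and Cux2. H3K27me3 is the trimethylation of lysine 27 on histone H3. A peak of the deposited table was counted as a member if it overlapped one of these gene bodies, extended by 5 kb on each side, by at least 1 base. Gene positions are those of the GENCODE M21 annotation of the build mm10 (GRCm38). The rule found 31 of 23668 listed peaks, in the windows of 7 of the 9 genes.

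The mark was profiled by ChIP-seq in primary hippocampal neurons, wild type by the labels and prepared from mixed-sex CD1 mouse embryos by the study's methods. Cultures received lipid nanoparticles with either a negative control gapmer (control) or a gapmer against the long noncoding RNA NeuID (NeuID knockdown). Gapmers are short antisense oligomers with a DNA core that lead to cleavage of the RNA they pair with. By the labels, 6 control and 6 NeuID knockdown ChIP libraries were made with the same anti-H3K27me3 antibody, and each condition has 1 input library. The labels do not say whether libraries came from separate cultures.

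The table gives, for each peak, the log2 of the authors' mean normalised reads over all libraries and over each group. Differences below are the NeuID knockdown mean minus the control mean on the log2 scale. Because only group means were analysed here, values carry no SD and no n, no test was run, and no difference below is shown to exceed the spread between replicates. In the overall mean, the control carried a weight of 0.545 at each of the 13918 peaks whose group means differed by more than 0.5 on the log2 scale, as 6 control and 5 NeuID knockdown libraries would give. Reads per library are unknown. The cultures are bulk samples, so fewer cells that carry the mark at a peak and less of the mark per cell cannot be told apart.

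Polycomb repressive complex 2 writes H3K27me3, and the mark is found over CpG-rich starts of developmental genes in cells where those genes are silent. Each of the factors is used in some neurons and not in others. Prox1 marks granule neurons of the dentate gyrus, Zbtb20 is required for the identity of CA1 pyramidal neurons, and Lef1 is a nuclear effector of Wnt signalling that the developing hippocampus needs. Bcl11b (also called Ctip2) and Fezf2 specify deep-layer neurons that project out of the cortex, Tbr1 specifies layer 6 neurons, and Cux2 marks upper-layer neurons. Neurod2 and Neurod6 are basic helix-loop-helix factors of differentiating excitatory neurons.

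The first question was which of these genes carried listed H3K27me3. Prox1 and Bcl11b had 7 peaks each, Neurod2 had 5, Tbr1 and Cux2 had 4 each, Lef1 had 3 and Zbtb20 had 1. Fezf2 and Neurod6 had none. Of 21938 protein-coding genes with the same kind of window, 28.1% had a listed peak and 4.71% had at least 4 peaks, which 5 of the 9 genes reached. Windows differ in length, with a median of 62.7 kb for the identity factors and 27.4 kb for all protein-coding genes. Per 100 kb of window the identity factors had 2.32 peaks and all protein-coding genes 1.18.

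The density of peaks differed strongly among the genes. Neurod2 had 35.1 peaks per 100 kb and 31.6% of its window lay in listed peaks. Tbr1 had 18.9 peaks per 100 kb with 10.7% of the window covered, and Prox1 had 11.2 with 6.43% covered. Bcl11b, Lef1 and Cux2 had 6.78, 2.42 and 1.96 peaks per 100 kb, with 3.96%, 4.32% and 0.955% covered. Both measures are divided by window length, so a long gene ranks low for the same peaks. Lef1 had 5357 bp in listed peaks in a 124 kb window, and Neurod2 had 4492 bp in a 14.2 kb window. Zbtb20, a gene of 767 kb, had 0.129, and 0.0492% of its window was covered. The 237 protein-coding windows of at least 500 kb had a median of 2 peaks.

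**Figure D1:**
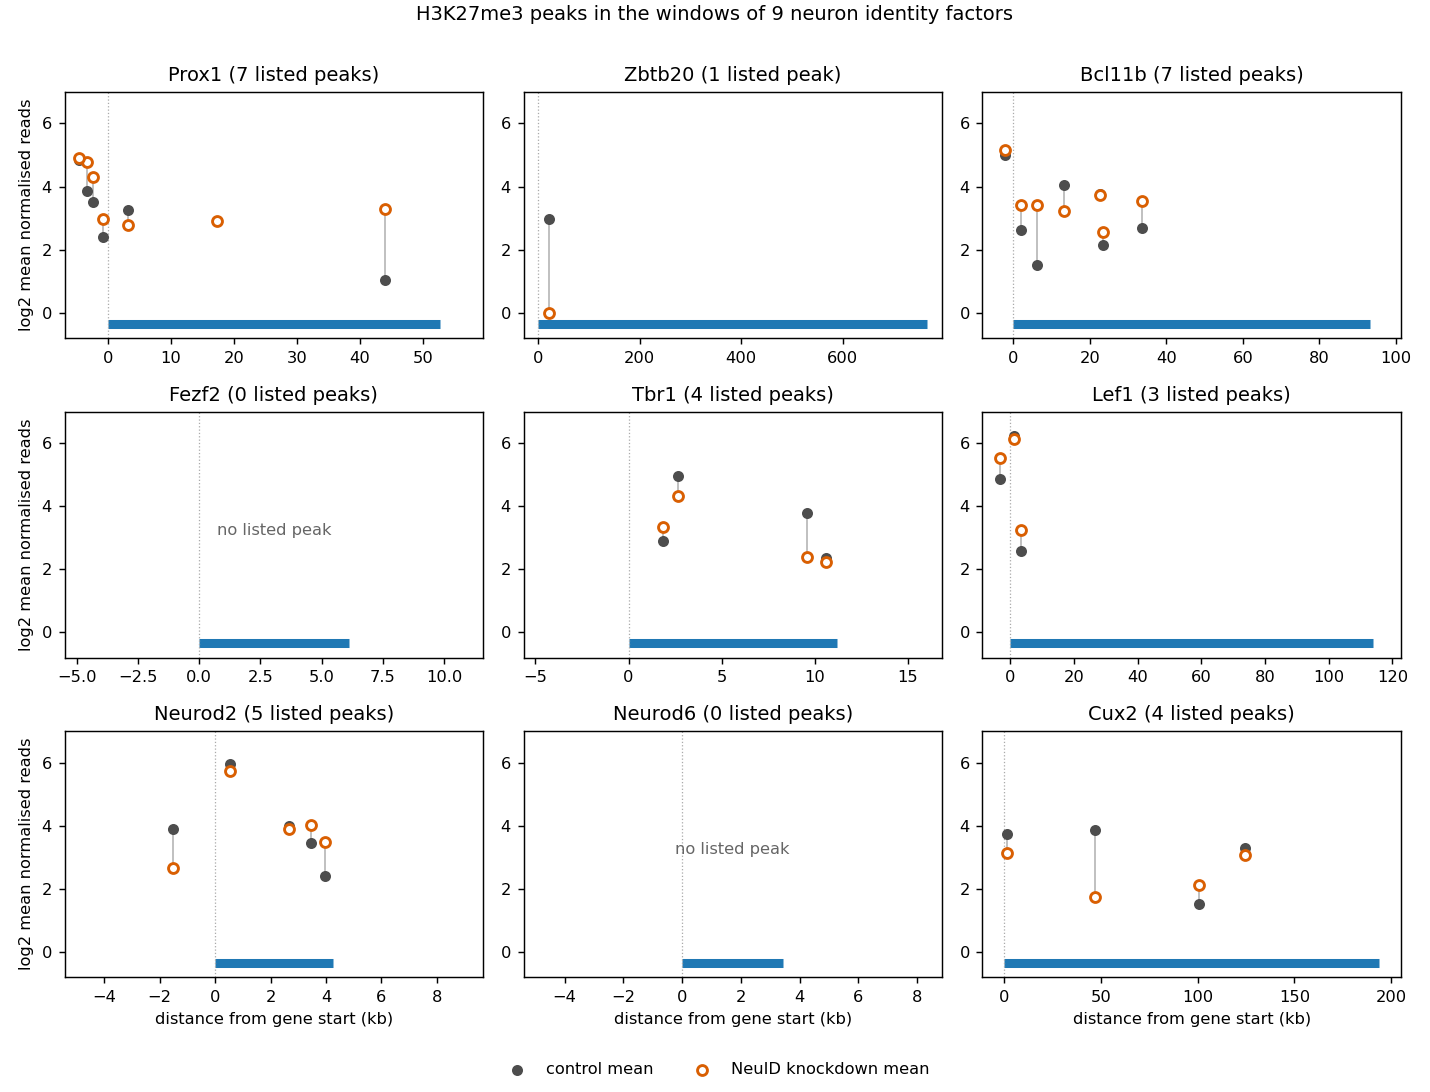
Each panel is 1 gene, with the distance of each peak centre from the gene start (kb) on the x axis and the authors' group mean (log2 normalised reads) on the y axis; the blue bar is the gene body, filled points are control means, open points NeuID knockdown means, and no error is available for either. Prox1 and Bcl11b show 7 peaks each, Zbtb20 shows 1 peak listed at 0 in the knockdown, and Fezf2 and Neurod6 show none.

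The gene starts show which sequence contexts did and did not lie in listed peaks. The 250 bases before the gene start are printed for 2 genes whose start lay in a peak (Lef1, Neurod2) and 2 whose start did not (Cux2, Neurod6). All are read 5′ to 3′ on the gene's strand from GRCm38, with CpG dinucleotides in capitals:

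Lef1 upstream (chr3:131110221-131110470, plus strand): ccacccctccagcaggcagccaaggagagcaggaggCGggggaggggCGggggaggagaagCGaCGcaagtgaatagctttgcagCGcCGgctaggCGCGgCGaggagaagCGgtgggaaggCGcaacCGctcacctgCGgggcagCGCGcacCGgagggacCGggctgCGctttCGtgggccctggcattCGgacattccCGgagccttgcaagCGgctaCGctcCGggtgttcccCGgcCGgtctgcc

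Neurod2 upstream (chr11:98329649-98329898, minus strand): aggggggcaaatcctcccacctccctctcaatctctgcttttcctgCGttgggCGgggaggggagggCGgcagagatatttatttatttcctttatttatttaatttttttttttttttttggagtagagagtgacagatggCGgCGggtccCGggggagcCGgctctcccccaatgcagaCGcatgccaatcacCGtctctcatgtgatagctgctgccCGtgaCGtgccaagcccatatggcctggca

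Cux2 upstream (chr5:122050103-122050352, minus strand): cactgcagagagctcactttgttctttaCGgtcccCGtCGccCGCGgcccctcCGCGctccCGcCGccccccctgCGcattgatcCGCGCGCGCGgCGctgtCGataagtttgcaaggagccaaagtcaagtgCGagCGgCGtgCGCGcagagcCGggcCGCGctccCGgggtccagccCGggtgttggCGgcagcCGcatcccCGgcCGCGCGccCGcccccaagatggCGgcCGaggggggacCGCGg

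Neurod6 upstream (chr6:55681264-55681513, minus strand): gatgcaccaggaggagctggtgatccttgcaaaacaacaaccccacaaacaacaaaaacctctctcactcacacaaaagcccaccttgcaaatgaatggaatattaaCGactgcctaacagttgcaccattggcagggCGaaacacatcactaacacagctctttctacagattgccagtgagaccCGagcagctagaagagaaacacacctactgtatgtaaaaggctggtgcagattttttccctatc

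The Cux2 stretch holds 38 CpG dinucleotides, the Lef1 stretch 26, the Neurod2 stretch 11 and the Neurod6 stretch 3. Over 21938 protein-coding genes the median was 8, and 98.1% of genes had fewer than Cux2. Stretches with at least 8 CpG touched a listed peak in 8.14% of genes and those with fewer in 3.13%. At 38 CpG or more the share was 3.67%. The identity factors thus include a CpG-rich start without a listed peak, at Cux2, and a start of middling content inside one, at Neurod2. The E-box CAGATG, searched on both strands as CAGATG or CATCTG, was found in the stretches of Neurod2 and Tbr1 and in 13.0% of all protein-coding genes. A match describes letters only.

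The second question was whether the group means differed at these peaks. Of the 31 peaks, 3 were lower by more than 1 on the log2 scale after knockdown, 3 were higher by more than 1, and 24 lay within that limit. The remaining peak was listed at 0 in the knockdown, which means a group mean of at most 1 normalised read. The lower and the higher peaks were each 9.68% of the 31. Among all listed peaks, 17.3% were lower and 17.1% were higher by more than 1 with both groups above 0, 3.35% were listed at 0 in the knockdown and 3.28% in the control. At this limit the shares at the identity factors were not above those of the whole list in either direction. At a limit of 0.5, 12 peaks (38.7%) were higher, beside 28.9% of all listed peaks, and 6 (19.4%) were lower, beside 29.9%. With 10 kb on each side and a limit of 1, 6 of 35 peaks (17.1%) were lower and 3 (8.57%) were higher.

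Across the 30 peaks with both groups above 0, the difference had a median of 0.10, with 14 below and 16 above 0. Its quartiles were -0.23 and 0.68, against -0.73 and 0.70 with a median of -0.02 over all listed peaks. The median turned to -0.02 both with the gene bodies alone and with 10 kb on each side. Reads summed over the 31 peaks came to 102.9% of the control, and over all listed peaks to 97.1%. The authors' normalisation is not stated and may set such ratios.

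The differences beyond 1 were at weaker peaks. All 6 peaks with a difference beyond 1 had an overall log2 mean of at most 3.45 and were at most 659 bp wide. In the 4 peaks with an overall log2 mean of 5 or more, the differences ran from -0.24 to 0.69. Those 4 peaks lay at Lef1, Neurod2 and Bcl11b. Of the 3 peaks between 4 and 5, 0 passed 1 in either direction. Of the 15 between 3 and 4, 3 were lower and 1 was higher, and of the 9 below 3, 0 were lower and 2 higher. Over the whole list, the shares lower and higher by more than 1 were 17.8% and 21.1% below 3, 20.0% and 15.7% from 3 to 4, 13.3% and 7.62% from 4 to 5, and 3.01% and 1.25% at 5 and above. Whether depth accounts for this could not be examined from group means and was not tested.

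**Figure D2:**
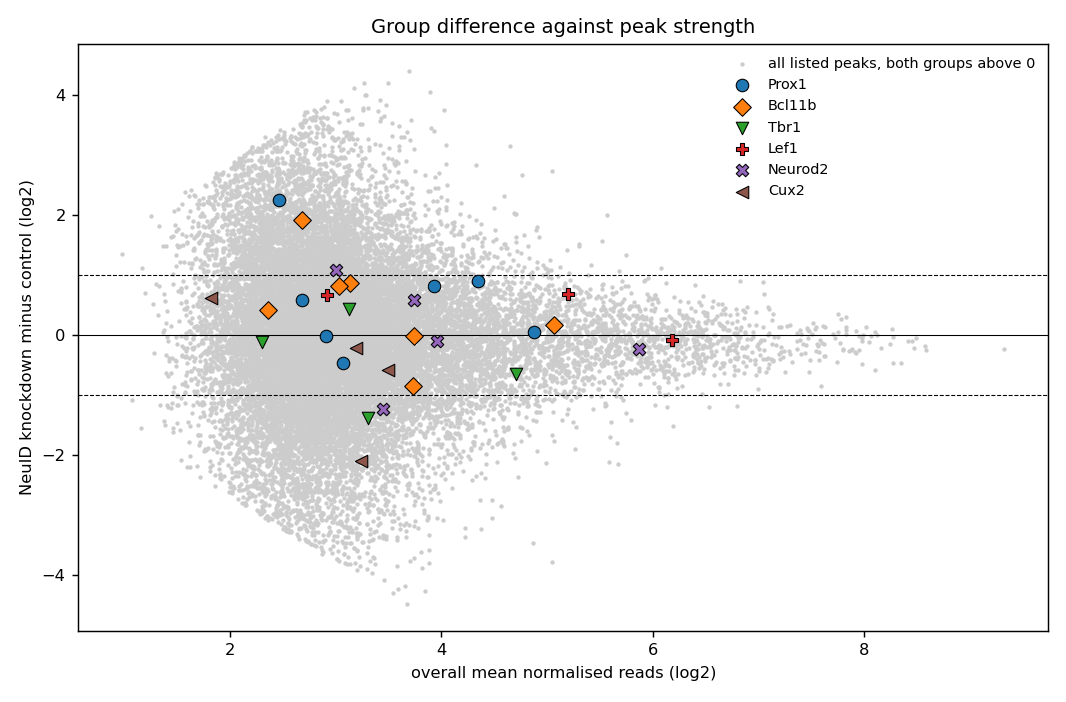
The x axis is the authors' overall mean (log2 normalised reads) and the y axis the NeuID knockdown minus control difference (log2) of each listed peak with both groups above 0; grey points are all listed peaks, coloured symbols the 30 peaks of the identity factors, and dashed lines mark -1 and 1. The coloured symbols beyond the dashed lines all lie below an overall mean of 3.5, where the grey points also spread widely.

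Among the dentate and hippocampal factors, Prox1 (chromosome 1, 190118035 to 190170714, minus strand) had its listed peaks mainly before the gene start. Of the 7, 4 formed an upstream run of 4544 bp, 70.3% of it in peaks, that began 587 bp before the gene start and lay over the antisense gene Prox1os. Each of the 4 had a higher mean after knockdown. Going away from the gene, control and knockdown held 5.24 and 7.79 normalised reads, then 11.3 and 19.9, then 14.6 and 27.3, and at the farthest peak 28.9 and 29.9. The differences were 0.57, 0.81, 0.90 and 0.05, so the farthest and strongest peak of the run was nearly level and none passed 1. Summed over the run the difference was 0.50. ChIP reads carry no strand, and these peaks cannot be assigned to Prox1 or to Prox1os.

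The upstream run of Prox1 reached across the edge of the window, and the next peaks outside the window went the other way. The last peak of the run, 4097 bp from the gene start (190174811 to 190175844), overlapped the edge and was counted whole. The first peak wholly outside lay 5396 bp upstream (190176110 to 190176508). It held 11.0 normalised reads in the control and 5.34 in the knockdown, a difference of -1.05. Another, 7242 bp upstream, had 13.7 and 3.92 reads and a difference of -1.81. With these peaks included, the difference of summed reads at Prox1 moved from 0.46 to 0.18.

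Inside the Prox1 gene body, 3 peaks were listed. A 333 bp peak over a coding exon had 7.55 reads in the control and 7.47 in the knockdown. An intronic peak 2968 bp after the gene start had 9.60 and 6.92 reads, a difference of -0.47. The largest positive difference of any identity factor peak, 2.25, belonged to a 265 bp intronic peak with 2.04 reads in the control and 9.71 in the knockdown. It was also among the weaker peaks, with 77.2% of all listed peaks above it in overall mean. Of listed peaks with an overall log2 mean below 3, 7.01% were higher by more than 2. Its whole sequence in the reference genome is printed here because it carries this difference. Capitals mark CpG dinucleotides, of which it holds 5:

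Prox1 intronic peak (chr1:190126663-190126927, plus strand): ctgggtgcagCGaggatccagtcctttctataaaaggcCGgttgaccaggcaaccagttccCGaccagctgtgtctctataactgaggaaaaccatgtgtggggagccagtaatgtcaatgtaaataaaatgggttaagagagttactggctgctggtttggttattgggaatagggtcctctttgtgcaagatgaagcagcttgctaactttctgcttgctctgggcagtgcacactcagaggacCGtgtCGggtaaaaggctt

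Zbtb20 (chromosome 16, 42875881 to 43642602, plus strand) had a single listed peak, 382 bp wide and 20608 bp after the gene start (42896489 to 42896870). It lay in an intron, over the antisense gene Gm19522. The control mean was 7.90 normalised reads and the knockdown was listed at 0, so no fold is given. Among listed peaks with an overall log2 mean below 3, to which it belongs, 5.57% were listed at 0 in the knockdown and 5.75% in the control. No listed peak lay within 5 kb of the Zbtb20 gene start. The central 300 bases of the peak, read from the reference genome, are shown because this was the only identity factor peak with a group at 0. The stretch holds 2 CpG dinucleotides, in capitals:

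Zbtb20 intronic peak (chr16:42896530-42896829, plus strand): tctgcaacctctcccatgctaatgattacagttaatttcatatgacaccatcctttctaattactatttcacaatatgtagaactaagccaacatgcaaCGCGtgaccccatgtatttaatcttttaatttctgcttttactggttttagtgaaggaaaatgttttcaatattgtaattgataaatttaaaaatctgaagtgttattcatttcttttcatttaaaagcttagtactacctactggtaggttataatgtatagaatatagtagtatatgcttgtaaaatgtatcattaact

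Lef1 (chromosome 3, 131110471 to 131224356, plus strand) carried the widest and strongest peak of the 9 genes. It covered the gene start and 3 annotated transcript starts over 3250 bp (131109905 to 131113154), including coding and UTR sequence, and overlapped the antisense gene Gm43352. Only 0.963% of all listed peaks were wider. It held 74.7 normalised reads in the control against 70.6 after knockdown, a difference of -0.08. A neighbouring peak 2300 bp upstream, 1818 bp wide (131106354 to 131108171), had 28.8 and 46.3 reads and a difference of 0.69. A 289 bp peak 3282 bp inside the gene had 5.99 and 9.48 reads and a difference of 0.66. The 3 peaks spanned 7688 bp at the 5′ end, and no other peak was listed in the 124 kb window. Summed over them the difference was 0.21, and -0.01 with the gene body alone.

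The deep-layer factor Bcl11b (chromosome 12, 107910403 to 108003602, minus strand) had 1 strong peak upstream and 6 weaker peaks in introns. The upstream peak, 1274 bp wide (108005042 to 108006315), ended 1440 bp before the gene start. It held 31.9 normalised reads in the control against 35.5 after knockdown, a difference of 0.16. The intronic peaks lay between 1716 and 33452 bp after the gene start, with control means from 2.86 to 16.7 reads. A single one passed the limit: a 473 bp peak (107997104 to 107997576) with 2.86 reads in the control and 10.7 in the knockdown, a difference of 1.91. The others ran from -0.85 to 0.87. Of the 7 peaks, 5 were higher and 2 lower after knockdown. The summed difference of 0.25 turned to -0.12 when only peaks of at least 500 bases were kept.

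Fezf2 (chromosome 14, 12342094 to 12348189, minus strand), which acts with Bcl11b in the same neurons, had no listed peak in its 16.1 kb window. The nearest listed peak lay 382569 bp away. A gene without a listed peak is not shown to lack the mark, since the table holds only regions that passed the authors' peak calling. Of 10081 protein-coding windows of at most 25 kb, 20.6% had a listed peak.

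Tbr1 (chromosome 2, 61802930 to 61814114, plus strand) had 4 peaks, all inside the gene body, and none at the gene start. A pair 21 bp apart lay 1637 bp after the gene start. Its 2 peaks lay 114 and 75 bp from the nearest annotated transcript start, inside the gene. The first, 434 bp wide, had 7.51 normalised reads in the control and 10.2 in the knockdown, a difference of 0.44. The second, 1166 bp wide over a coding exon (61805022 to 61806187), was the strongest of the gene, with 31.2 and 19.9 reads and a difference of -0.65. Another pair lay near the 3′ end. Its 451 bp member over coding and UTR sequence (61812310 to 61812760) had 13.8 and 5.27 reads, a difference of -1.39, and its 219 bp member in the UTR had 5.11 and 4.68 reads. Of the 4 peaks, 3 were lower after knockdown, and the summed difference was -0.53.

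The upper-layer factor Cux2 (chromosome 5, 121856366 to 122050102, minus strand) had 4 intronic peaks spread over its 194 kb. The one nearest the gene start, 1350 bp inside (122048019 to 122048752), was 734 bp wide, had 13.3 normalised reads in the control against 8.83 after knockdown, and lay over the antisense gene Gm15637. Its difference was -0.59. The most negative difference of any identity factor peak with both groups above 0, -2.10, was found at a 421 bp peak (122002996 to 122003416) with 14.5 and 3.37 reads, 652 bp from an annotated internal transcript start. Of listed peaks with an overall log2 mean between 3 and 4, 6.40% were lower by more than 2. The other 2 peaks of Cux2 had 9.72 and 8.36, and 2.84 and 4.37 reads. The summed difference was -0.69, the lowest of the 6 genes for which a sum could be compared. The central 300 bases of the peak with the difference of -2.10 hold 5 CpG dinucleotides, in capitals:

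Cux2 intronic peak (chr5:122003057-122003356, plus strand): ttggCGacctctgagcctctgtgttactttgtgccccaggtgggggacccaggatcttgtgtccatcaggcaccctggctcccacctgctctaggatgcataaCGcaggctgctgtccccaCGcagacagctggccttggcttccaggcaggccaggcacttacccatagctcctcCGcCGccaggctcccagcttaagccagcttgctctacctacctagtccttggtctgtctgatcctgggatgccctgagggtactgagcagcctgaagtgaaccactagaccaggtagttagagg

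Neurod2 (chromosome 11, 98325415 to 98329648, minus strand) was the gene most fully covered by listed peaks. Its 5 peaks spanned 6036 bp and 74.4% of that span was covered. The span ran from an upstream peak, whose near edge lay 1187 bp before the gene start, to the 3′ end. The peak over the gene start, 2330 bp wide (98327948 to 98330277), had 62.7 normalised reads in the control and 53.2 in the knockdown, a difference of -0.24. Only 2.12% of all listed peaks were wider.

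Along Neurod2 the differences were ordered by position. The upstream peak (98330835 to 98331493) had 14.8 reads in the control and 6.29 in the knockdown, a difference of -1.23. After the gene start peak came a 468 bp peak over coding and UTR sequence, with 16.0 and 15.0 reads and a difference of -0.10. The next, 599 bp wide in the UTR, had 10.9 and 16.4 reads and a difference of 0.58. The last, 436 bp wide in the UTR (98325458 to 98325893) and 4 bp from its neighbour, had 5.32 and 11.3 reads and a difference of 1.08. The knockdown mean was thus the lower at the 5′ peaks and the higher at the 3′ peaks. The summed difference over the gene was -0.10, and 0.01 with the gene body alone. This order was seen after the values were known and rests on 5 neighbouring peaks of the same libraries. The order did not continue outside the window: the nearest peak past the 3′ edge of the window lay 5182 bp downstream, with 13.0 and 6.05 reads and a difference of -1.11. Another, 7658 bp downstream, had 10.1 reads in the control and was listed at 0 in the knockdown.

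Neurod6 (chromosome 6, 55677822 to 55681263, minus strand), the relative of Neurod2 in the same neurons, had no listed peak in its 13.4 kb window, and the nearest lay 85288 bp away. The 2 genes are of similar size, 4234 and 3442 bp.

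**Figure D3:**
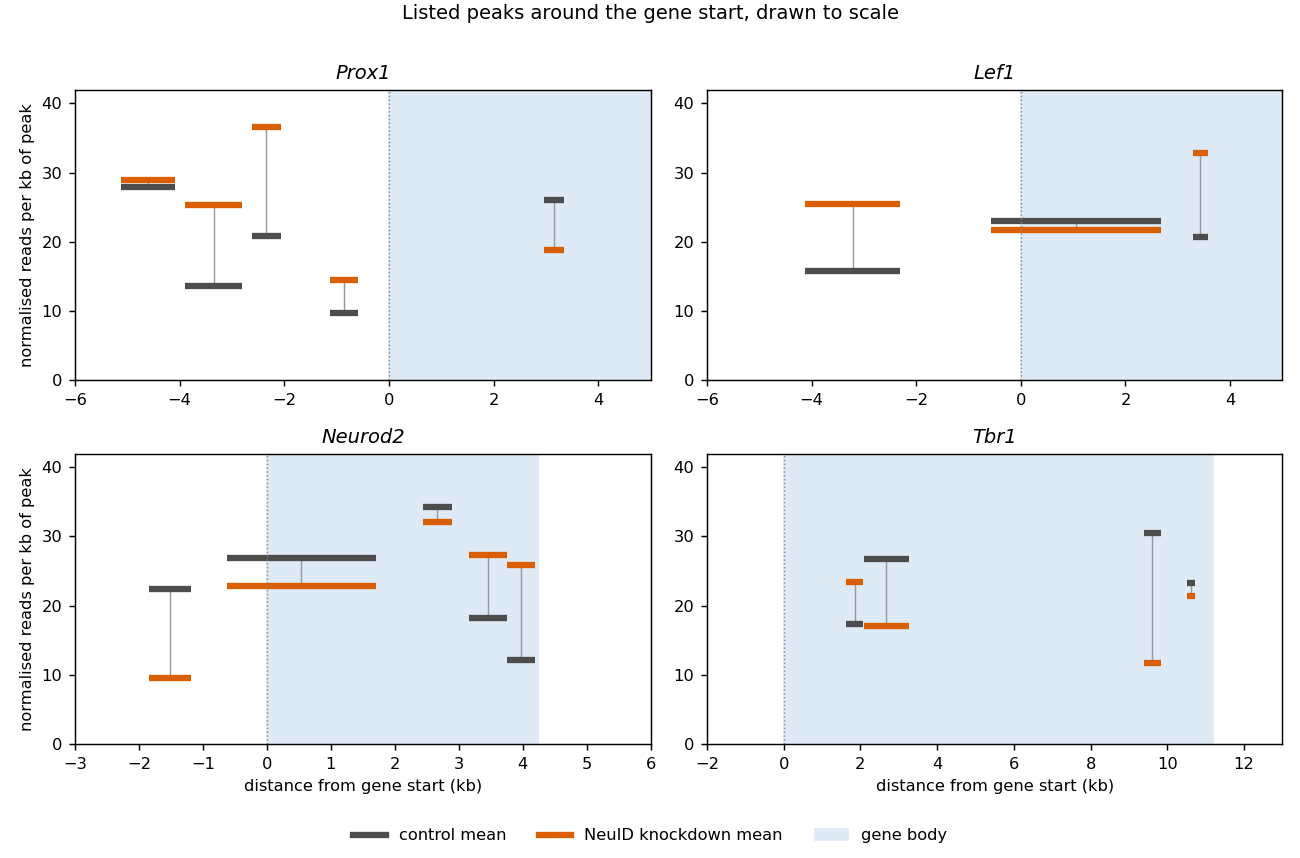
Listed peaks around the gene starts of Prox1, Lef1, Neurod2 and Tbr1 (the 2 farther peaks of Prox1 lie outside), drawn to scale against the distance from the gene start (kb, x axis), with normalised reads per kb of peak on the y axis; dark bars are control means, orange bars NeuID knockdown means, shading is the gene body, and no error is available. The orange bars lie above the dark bars in the 4 upstream peaks of Prox1, and in Neurod2 they lie below at the upstream peak and above at the 2 peaks nearest the 3′ end.

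Levels were compared between genes per kb of listed peak. Among the 6 genes with both groups above 0, the control level ran from 19.1 normalised reads per kb at Prox1 to 25.4 at Tbr1. These levels are summed reads divided by summed peak width. Taken peak by peak instead, the median control level was 20.7 at the identity factor peaks and 18.8 over all listed peaks. After knockdown the level ran from 12.8 at Cux2 to 26.2 at Prox1. Per kb, Prox1, Bcl11b and Lef1 had the higher mean after knockdown, and Tbr1, Neurod2 and Cux2 the lower. The summed differences ran from -0.69 to 0.46. With no spread between libraries, neighbours in either order cannot be separated.

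**Figure D4:**
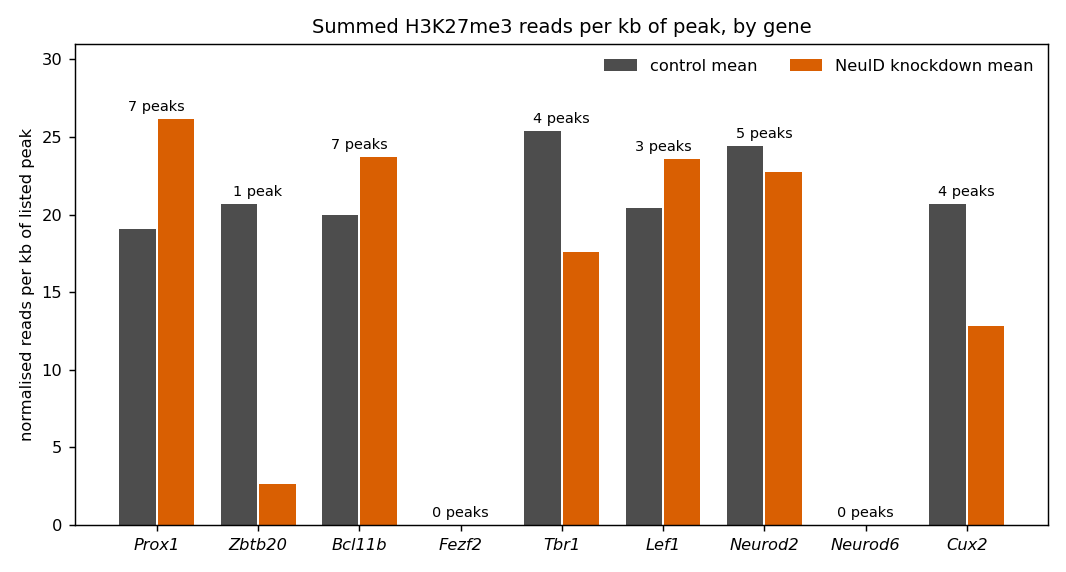
Bars give the authors' group means summed over the listed peaks of each gene and divided by their summed width (normalised reads per kb of peak, y axis, starting at 0), dark for control and orange for NeuID knockdown; there is no error bar because only group means were analysed. Control bars lie between 19.1 and 25.4 for the genes with both groups above 0, and the knockdown bar of Zbtb20 is the upper limit set by its listing at 0.

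The rule placed every peak in a gene body or within 5 kb of it, but did not set where in that window. Base composition was not part of the rule. All listed peaks, the reference below, were not limited to such windows. Of the 31 peaks, 13 lay in introns only, 11 touched a coding exon or UTR, and 7 lay upstream. Other listed peaks were not sorted in this way, so these 3 counts have no reference. Counted by gene, the start lay in a listed peak at 2 of the 9 genes, Lef1 and Neurod2, and at 5.19% of all protein-coding genes. The median peak of the identity factors held 3.06 CpG dinucleotides per 100 bp, against 1.23 over all listed peaks, and its GC content was 55.2% against 49.2%. Peaks of at least 1 kb were 7 of the 31 (22.6%), against 9.72% of all listed peaks. These 7 held between 3.06 and 6.74 CpG per 100 bp. Repeat-masked bases made up a median of 8.72% of each peak, against 10.7% over all listed peaks. Of 11 neighbouring pairs less than 1000 bp apart, 4 had differences of opposite sign. The same count was not made over all listed peaks, so it has no reference and is not a trait of these genes.

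A further 29 identity factors of cortical and hippocampal neurons were read in the same way. Listed peaks were found at 19 of the 29 and none at 10. Their 66 peaks included 13 lower and 13 higher by more than 1, 1 listed at 0 in the knockdown and 3 listed at 0 in the control, with a median difference of -0.09. The lower and the higher peaks were each 19.7% of the 66, near the 17.3% and 17.1% of all listed peaks. Eomes, a T-box relative of Tbr1 in intermediate progenitors, had the most peaks, 9, of which 1 was lower, 2 were higher and 1 was listed at 0 in the knockdown. Nr2f2, a nuclear receptor of ventral and caudal neurons, had 5 of 8 peaks lower, a median difference of -1.35 and a summed difference of -0.66. Cux1, the paralogue of Cux2, had 8 peaks, 4 of them higher and 1 listed at 0 in the control. Its median difference was 1.04 and its summed difference 0.91. Neither gene was among the 9, and no test was run for them. The 4 partners and relatives of Lef1 (Tcf7, Tcf7l1, Tcf7l2, Ctnnb1) had 10 peaks, 3 lower (30%) and 1 higher (10%), with 2 of the genes listing none. Tcf7l2 held 9 of these peaks, including all 3 lower ones, with a median difference of -0.91. The single Tcf7l1 peak was the higher one, with a difference of 2.41.

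H3K27me3 does not measure RNA, so the labelled cell type could not be checked by expression. Listed peaks were found at 6 of 10 neuronal genes and 10 of 10 GABAergic identity genes. The neuronal genes include Camk2a and Slc17a7, which mark excitatory neurons. Peaks were listed at 1 of 6 astrocyte, 5 of 6 oligodendrocyte lineage and 1 of 4 microglial genes, beside 28.1% of all protein-coding genes. That share was 20.6% for windows of at most 25 kb and 54.8% for windows of at least 100 kb. The lists were not matched for window length. Of the 31 peaks at the neuronal genes, Rbfox3 and Slc17a7 had 13 each. Snap25, Syn1, Syp and Camk2a had none. How far other cell types in the cultures contributed to the peaks of the identity factors was not tested.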

How the data were processed

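Per the labels and methods, the authors aligned reads to mm10 (bowtie2), made broad peak calls (MACS2) and ran DiffBind. For each peak they deposited log2 mean normalised reads over all libraries and per group. Their normalisation, duplicate removal, input subtraction and peak merging are not given in the sources used here. The Fold, p-value and FDR columns hold the authors' own comparison and were not used. The table held 0 unused columns of single samples. Groups follow the sample titles; input libraries entered no comparison.

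Group means were subtracted on the log2 scale, converted to normalised reads for sums and for levels per kb, and counted at a limit of 1, both groups above 0. Coordinates were checked against GRCm38 chromosome lengths; 26 listed peaks lie off the chromosomes. Named were all 9 genes and, of each, the widest, strongest and gene start peaks and those past the limit or listed at 0. Of the other identity factors, those with the most peaks were named. Members and lists were chosen with earlier results of these data known. No test was run, because values per library were not analysed here. Alternatives were other windows, overlap, width, strength, limits, centring and handling of 0. Scripts were tested on simulated data. Python 3.11.15, numpy 2.4.6 and pandas 2.3.3 were used.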

Additional observations from a re-analysis of the deposited data

How the results depend on the processing

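No paired analysis was possible because only means per group were analysed; for this reason no library could be left out and no replicate block fitted. A count was taken as moved beyond 1.5 times, a difference beyond 0.25 on the log2 scale. Of the recomputed values, 70 kept direction and size by these limits, 18 moved and 5 reversed. The reversed values were the median difference (-0.019 with the gene body only and -0.016 with 10 kb on each side) and the summed difference of Lef1 (-0.010) and Neurod2 (0.012) with the gene body only and of Bcl11b (-0.12) with peaks of at least 500 bases. With 10 kb on each side, 6 peaks were lower, 2 were listed at 0 in a group and the summed difference of Prox1 was 0.18. Within 5 kb of the gene start there were 18 peaks, 1 lower (5.56%), 1 higher (5.56%) and 0 listed at 0. An overall log2 mean of at least 4 left 7 peaks, with 0 lower, 0 higher and 0 at 0. Peaks of at least 500 bases were 13, with 1 lower (7.69%), 0 higher and 0 at 0. For peaks near gene starts and for peaks of this width, the share over all listed peaks was not computed, so these counts have no reference. A limit of 0.5 gave 6 lower and 12 higher peaks (19.4% and 38.7%), beside 29.9% and 28.9% of all listed peaks, so that the higher share lay above the list's at this limit and below it at 1, and a limit of 1.5 gave 1 lower and 2 higher, beside 9.67% and 9.71%. Smaller counts follow from fewer peaks or a stricter limit by construction; the cause of the reversals was not tested. Depth per library is unknown.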
